A study of Mus musculus with 16 samples.

Results

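The mouse genes Dynlt1a, Dynlt1b, Dynlt1c and Dynlt1f and the genes Tmem181a and Tmem181b-ps are near-identical copies that lie within the same stretch of chromosome 17. These 6 genes, of 53090 in the deposited tables, were taken by symbol and were chosen by the difference between WT and Aim2-/- cells that single copies show in these same counts. The genotype difference is therefore given below as a description, with no test, for each copy and for the sum of each family. Comparisons of Treg with Tn cells within a genotype were not the basis of the choice and were tested. The choice and these tests share the Tn and the Treg libraries. For copies lower in WT Tn, this can favour a WT rise and an Aim2-/- fall. For copies lower in WT Treg cells it can favour the reverse.

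Dynlt1 genes encode a light chain of the Tctex type of cytoplasmic dynein, the motor complex that carries cargo along microtubules toward their minus ends. The light chains sit on the dynein intermediate chain and take part in holding the motor together and in binding cargo. In T cells, dynein moves the microtubule organizing centre toward the contact with an antigen-presenting cell. Tmem181 genes encode a membrane protein with several membrane-spanning segments, whose role in T cells is not well described, and Tmem181b-ps is annotated as a transcribed pseudogene.

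RNA was sequenced from 16 libraries in 4 groups of 4: freshly isolated naïve CD4+ T cells (Tn) from WT and from Aim2-/- mice, and CD4+ T cells of both genotypes after 48 h of Treg culture. WT mice were C57BL/6, and the Aim2-/- mice, which lack the cytosolic DNA sensor Aim2 in all cells, were on the C57BL/6 background. Both were bred in one facility and were sex- and age-matched, but ages, littermate status and the mouse behind each library were not given. Tn cells were taken fresh from the spleen by immunomagnetic selection of CD44low CD62Lhigh cells. Treg cells had been stimulated with anti-CD3 and anti-CD28 antibodies in the presence of recombinant human TGF-beta and recombinant mouse IL-2. No source ties libraries to separate mice, so the spread between replicates may be technical in part.

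The libraries had between 22516424 and 34533316 expected counts, the estimated reads per gene that RSEM gives when a read fits more than 1 gene. At this depth the floor of 3 counts stood for 0.0869 to 0.133 CPM, counts scaled to a common library size. Aim2 was at 32.3 to 43.3 CPM in the 8 WT libraries and at 6.61 to 10.8 CPM in the 8 Aim2-/- libraries. Summed markers of the Treg culture (Foxp3, Il2ra, Ctla4 and Ikzf2) were at 23.2 to 89.7 CPM in Tn and at 1650 to 2176 CPM in Treg libraries. All 7 T cell markers were above 1 CPM in each group, summing to 3852 to 5068 CPM in Tn and 1543 to 1794 CPM in Treg libraries. Some summed markers of other cells differed by genotype in Tn: 6 erythroid and platelet markers were at 8.47 to 11.9 CPM in Aim2-/- and 4.52 to 7.92 CPM in WT libraries (Pf4 under 1 CPM throughout), and 6 B cell markers at 2.44 to 3.12 and 1.54 to 2.15 CPM (Ms4a1 under 1 CPM throughout). Summed myeloid markers overlapped, at 26.2 to 39.4 CPM in Aim2-/- and 24.5 to 31.3 CPM in WT Tn. So did CD8 T and NK markers, at 12.2 to 19.3 and 10.9 to 19.3 CPM. In Treg cells none of these lists stood apart between genotypes, and the part of these cells in the values below was not tested.

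On GRCm38, in the GENCODE M21 models, the copies span 399041 bases of chromosome 17, with other sequence between them. Tmem181a lies on the plus strand at chr17:6256860-6308314, and Dynlt1a on the minus strand at chr17:6306340-6317500, so that their ends overlap by 1975 bases on opposite strands. Dynlt1b lies on the plus strand at chr17:6430112-6436296, and 2227 bases after it Tmem181b-ps on the minus strand at chr17:6438524-6467022. Dynlt1c lies on the plus strand at chr17:6601671-6609774 and Dynlt1f on the minus strand at chr17:6646602-6655900. A further copy between them, Tmem181c-ps, had at most 1.27 counts in any library, and Dynlt1-ps1, on another chromosome, at most 8.71, and neither was tested.

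The 4 Dynlt1 copies share almost all of their coding sequence, which is why the counting of single copies matters here. Each coding sequence has 342 bases. Those of Dynlt1a, Dynlt1c and Dynlt1f are identical, and Dynlt1b differs from them at 1 base, C21A, counted from the A of the start codon, with the base of Dynlt1f first. That base is the third of its codon. The first 60 coding bases are shown from 5′ to 3′ as the reference gives them, with position 21 in capitals:
Dynlt1a: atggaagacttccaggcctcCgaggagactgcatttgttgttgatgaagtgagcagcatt
Dynlt1b: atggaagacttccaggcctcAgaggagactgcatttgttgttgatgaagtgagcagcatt
Dynlt1c: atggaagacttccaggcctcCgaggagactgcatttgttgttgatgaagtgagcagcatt
Dynlt1f: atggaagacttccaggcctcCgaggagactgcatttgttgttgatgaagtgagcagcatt

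Tmem181b-ps parts from Tmem181a by few bases as well. Over 1413 aligned bases of the Tmem181a coding sequence, 1406 were identical (99.5%) in the transcript Tmem181b-ps-201 and 7 differed. Tmem181b-ps also lacks 2 bases of Tmem181a, at coding positions 587 to 588. Both stretches below show positions 558 to 617 of Tmem181a from 5′ to 3′, with the 2 bases that are missing in Tmem181b-ps in capitals:
Tmem181a: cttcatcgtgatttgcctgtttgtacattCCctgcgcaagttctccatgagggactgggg
Tmem181b-ps: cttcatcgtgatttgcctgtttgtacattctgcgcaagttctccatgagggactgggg

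How much of a copy a 51-base read can tell apart differed widely between the genes. Of the 51-base windows along its transcripts, Tmem181a had 4734 of 6643 (71.3%) that occur in no other gene, and Tmem181b-ps had 2150 of 4235 (50.8%). The share was 37.4% for Dynlt1a, 16.8% for Dynlt1b, 15.7% for Dynlt1c and 11.6% for Dynlt1f. In Dynlt1b all 121 such windows lie in the first 171 of the 771 bases of its transcript. Tmem181b-ps had 1862 windows (44.0%) in common with Tmem181a. These values are for the transcribed strand. Without windows that match the other strand, 4375 were left to Tmem181a, 2101 to Tmem181b-ps, 1302 to Dynlt1a and 430 to Dynlt1c. The windows of Dynlt1b and Dynlt1f alone were the same in number.

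The deposited counts carry the marks of this sharing. Counts of Dynlt1a were not whole numbers in 15 of 16 libraries, and counts of the 5 other copies in all 16. The sum of Tmem181a, Tmem181b-ps and Tmem181c-ps was nonetheless a whole number, within 0.03 counts, in 16 of 16 libraries, as when reads are divided among those 3 rows alone. The sum of the 4 Dynlt1 copies and Dynlt1-ps1 was whole in 8 of 16 libraries and at most 0.23 counts away from a whole number. Tmem181a and Dynlt1a also have 482 windows in common on opposite strands, Tmem181a and Dynlt1f 157, and Tmem181b-ps and Dynlt1a 125. The strand setting of the counting was not given, and how reads from those windows were assigned was not tested. The Tmem181 sums, whole in 16 of 16 libraries, showed no fraction of a read shared with the Dynlt1 rows.

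In Tn cells the pseudogene Tmem181b-ps showed the largest difference between genotypes of the 6 copies. It was at 0.168, 0.312, 0.177 and 0.272 CPM in the 4 WT Tn libraries, in the order of their replicate numbers, which is 4.19 to 7.99 counts and close to the floor. In Aim2-/- Tn it was at 19.7, 23.9, 17.5 and 22.9 CPM. The groups were far apart, with means in the ratio 90.4 and a log2 difference of 6.47 (SE 0.21, n = 4 per group).

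In Treg cells the same pseudogene was again lower in WT, but was measured well above the floor in both genotypes. WT Treg libraries had 2.63, 2.28, 3.22 and 3.90 CPM, and Aim2-/- Treg libraries 9.24, 9.62, 11.8 and 11.3 CPM. The groups did not overlap, and the log2 difference was 1.80 (SE 0.18). The means stood in the ratio 3.49 in Treg cells, against 90.4 in Tn cells.

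Dynlt1b, one of the light chain genes, was the other copy whose genotypes did not overlap in either state. The WT Tn libraries held 4.64, 4.70, 7.92 and 6.25 CPM of it and the Aim2-/- Tn libraries 17.5, 17.1, 21.3 and 21.9 CPM. After Treg culture the WT libraries held 3.85, 3.64, 5.18 and 3.88 CPM and the Aim2-/- libraries 18.1, 18.5, 16.3 and 17.8 CPM. The 8 Aim2-/- libraries all lay above the 8 WT libraries, whatever the state. The log2 difference was 1.73 (SE 0.18) in Tn and 2.09 (SE 0.13) in Treg cells, with means in the ratio 3.31 and 4.27.

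**Figure D1:**
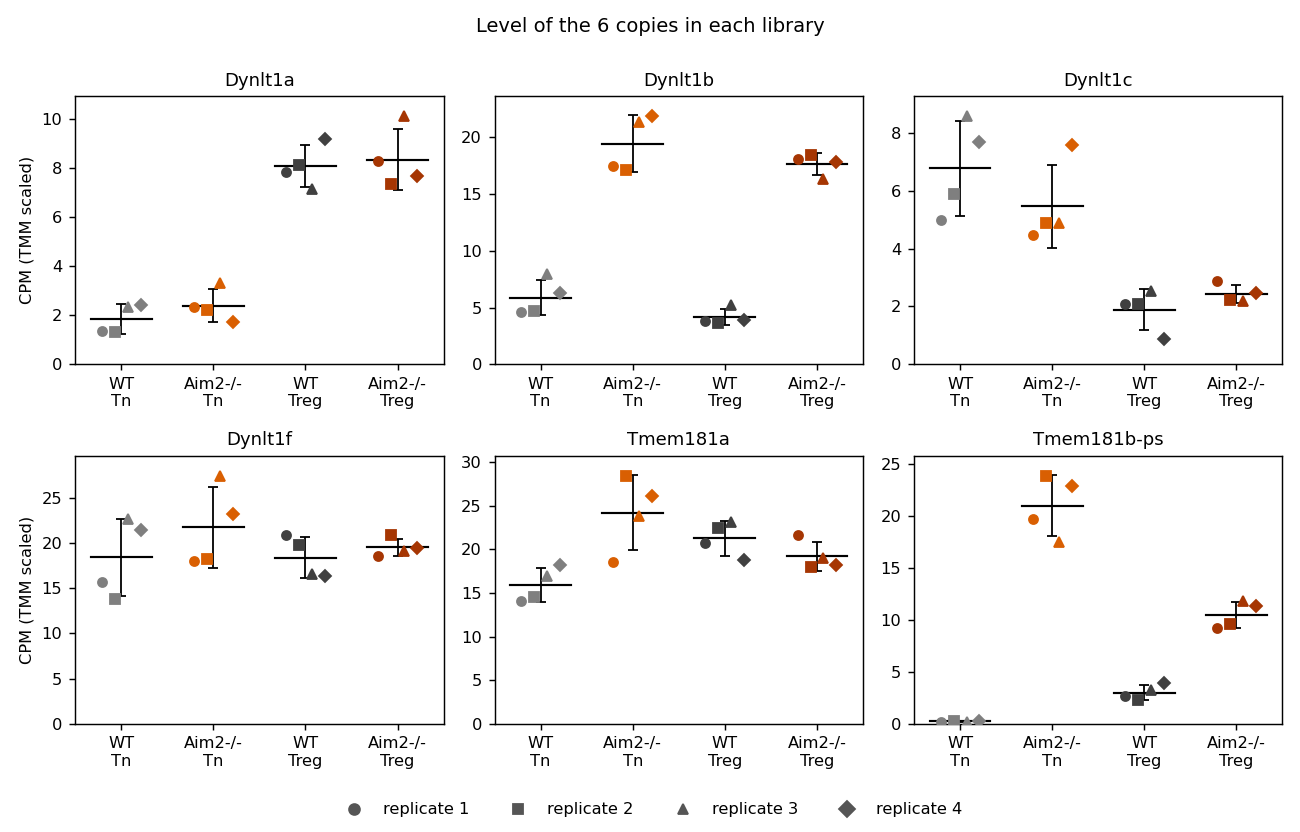
CPM (TMM scaled, linear axis from 0) of the 6 copies in each of the 16 libraries, with 1 panel per gene, 4 groups per panel, symbols for replicate numbers, and bars for the mean and SD of 4 libraries. Dynlt1b and Tmem181b-ps sit higher in both Aim2-/- groups than in either WT group, whereas Dynlt1a is high and Dynlt1c low in the Treg groups of both genotypes.

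Tmem181a, the protein-coding member of its family, differed between genotypes in 1 state. It was at 14.1, 14.6, 16.97 and 18.2 CPM in WT Tn and at 18.5, 28.4, 23.8 and 26.1 CPM in Aim2-/- Tn libraries, so that the groups just failed to meet. In Treg cells the groups overlapped, at 20.7, 22.5, 23.1 and 18.7 CPM in WT and at 21.6, 18.0, 19.0 and 18.3 CPM in Aim2-/- libraries. Its log2 difference was 0.61 (SE 0.14) in Tn and -0.15 (SE 0.09) in Treg cells.

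The 3 other light chain genes, Dynlt1a, Dynlt1c and Dynlt1f, overlapped between genotypes in both states. Their log2 differences lay between -0.30 (SE 0.22) for Dynlt1c and 0.38 (SE 0.29) for Dynlt1a in Tn cells, and between 0.04 (SE 0.13) for Dynlt1a and 0.35 (SE 0.29) for Dynlt1c in Treg cells. In all, 3 of 6 copies lay higher in Aim2-/- Tn with no overlap, where 3.33% of the 13441 genes tested did so, and 2 of 6 in Aim2-/- Treg, where 1.29% of 13221 did. These copies were chosen for that difference, and nothing is read from the counts.

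**Figure D2:**
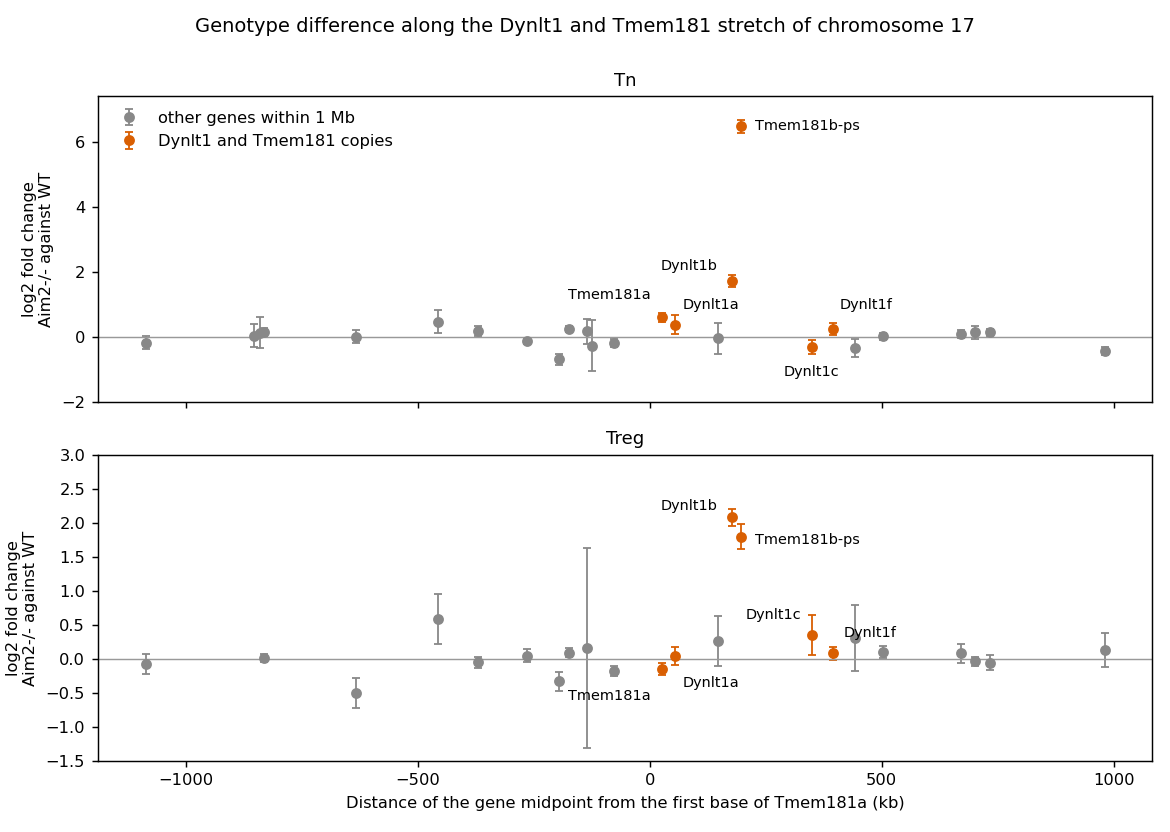
Log2 fold change of Aim2-/- against WT cells (vertical axis, bars are standard errors) by distance of the gene midpoint from the first base of Tmem181a in kb, in Tn (above) and Treg cells (below), with 4 libraries per genotype; the vertical scales differ. The copies are orange and the other tested genes within 1 Mb grey, which stay between -0.69 and 0.47 in Tn and between -0.50 and 0.59 in Treg cells, below Dynlt1b and Tmem181b-ps in both.

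Other genes of the region were tested, since they did not enter the choice. Within 1 Mb on either side of the copies, 37 other annotated genes were in the tables. By edgeR's quasi-likelihood test, adjusted by Benjamini-Hochberg, 0 of 20 tested neighbours differed between genotypes in Tn and 0 of 17 in Treg cells, beside 0.231% and 0.219% of all genes called. At an unadjusted p under 0.05 there were 3 in Tn and 2 in Treg cells, and DESeq2 called 1 in Tn and 0 in Treg cells. Serac1, a gene of mitochondrial phospholipid exchange that was singled out after its values were seen, had the most negative log2 fold change of the neighbours in Tn cells, -0.69 (SE 0.16). Its level was 5.67 ± 0.49 CPM (SD, n = 4) in WT and 3.498 ± 0.51 CPM in Aim2-/- libraries. In Treg cells the log2 fold change of Serac1 was -0.33 (SE 0.15). It did not pass the test in Tn (edgeR adjusted p = 0.24) or in Treg cells (edgeR adjusted p = 0.999).

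Summed over copies, the light chain transcripts still differed between genotypes, though by less than Dynlt1b alone. The Dynlt1 sum was 26.7, 25.7, 41.5 and 37.8 CPM in WT Tn and 42.2, 42.5, 57.0 and 54.4 CPM in Aim2-/- Tn libraries. Treg libraries had sums of 34.6, 33.6, 31.4 and 30.3 CPM when WT and of 47.8, 48.9, 47.8 and 47.4 CPM when Aim2-/-. No Aim2-/- library was as low as a WT library of its state, but in Tn cells the gap was narrow, since replicates 1 and 2 of each genotype lay below replicates 3 and 4. The log2 difference was 0.58 (SE 0.17) in Tn and 0.56 (SE 0.06) in Treg cells, and the means stood in the ratio 1.49 and 1.48.

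Most of the difference in the Dynlt1 sum stood in the Dynlt1b row. Mean CPM of the sum was 16.1 higher in Aim2-/- than in WT Tn cells, of which Dynlt1b made up 13.6 CPM (84.3%). In Treg cells it was 15.5 CPM higher, of which Dynlt1b made up 13.5 CPM (87.4%). Replicates 1 and 2 alone gave log2 differences of 0.71 (SE 0.10) in Tn and 0.50 (SE 0.06) in Treg cells, and replicates 3 and 4 alone 0.48 (SE 0.10) and 0.62 (SE 0.08). No label says what sets replicates 1 and 2 apart from 3 and 4.

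The Tmem181 sum was also higher in the Aim2-/- libraries of each state. It was 14.3, 14.9, 17.1 and 18.5 CPM in WT Tn and 38.3, 52.3, 41.3 and 49.0 CPM in Aim2-/- Tn libraries, with no overlap. Treg libraries had sums of 23.3, 24.8, 26.3 and 22.6 CPM when WT and of 30.9, 27.6, 30.8 and 29.6 CPM when Aim2-/-, again with no overlap but close together. The log2 difference was 1.49 (SE 0.13) in Tn and 0.29 (SE 0.07) in Treg cells. In Tn cells Tmem181b-ps made up 20.8 of the 29.03 CPM between the means, and in Treg cells a difference of 7.495 CPM in Tmem181b-ps stood beside one of -2.06 CPM in Tmem181a. How far these differences between genotypes differ between the states was not tested.

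**Figure D3:**
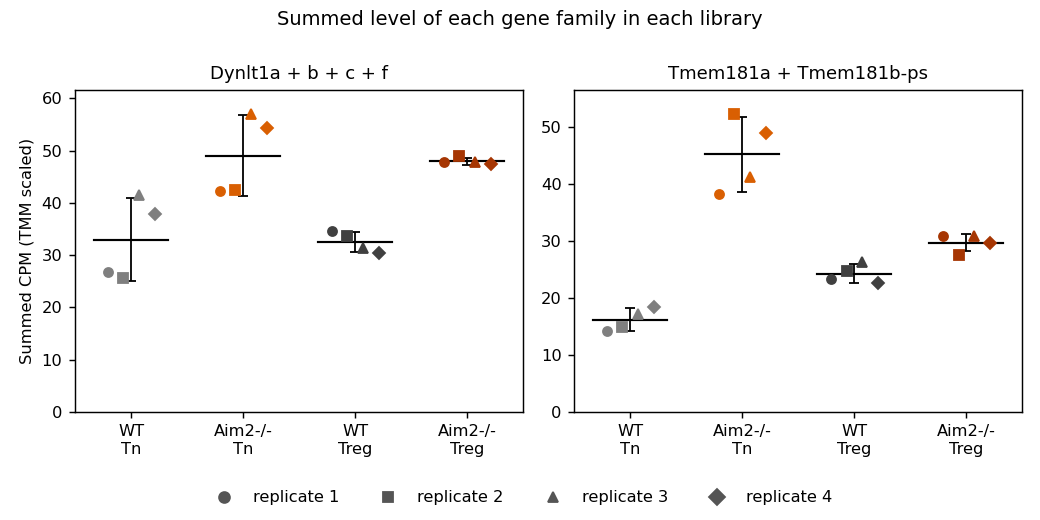
Summed CPM (TMM scaled, linear axis from 0) of the 4 Dynlt1 copies (left) and of Tmem181a with Tmem181b-ps (right) in each library, with symbols for replicate numbers and bars for the mean and SD of 4 libraries. Aim2-/- libraries lie above the WT libraries of their state in both families; the Dynlt1 sum of Tn cells splits into replicates 1 and 2 below replicates 3 and 4 in both genotypes.

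The Treg culture was compared with Tn cells next, within each genotype, with the same two-sided test. Of the 6 copies, 5 changed in WT (3 higher and 2 lower) and 4 in Aim2-/- cells (1 higher and 3 lower). Tmem181b-ps, 1 of the 3 higher in WT, entered that test only through the Treg libraries, where it is high, so its call there was favoured by the filter and is not read as support. These counts stand against a background in which 76.9% of 13675 genes were called in WT (37.7% higher and 39.2% lower) and 79.3% of 13713 in Aim2-/- cells (39.1% higher and 40.2% lower), so that calls as such do not set the copies apart. In bulk RNA, fewer cells that express a gene and less RNA per cell cannot be told apart.

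Among the light chain genes, Dynlt1a rose in the Treg culture of both genotypes. It was at 1.35, 1.300, 2.34 and 2.42 CPM in WT Tn and at 7.83, 8.14, 7.12 and 9.18 CPM in WT Treg libraries. In Aim2-/- cells it was at 2.31, 2.20, 3.33 and 1.71 CPM in Tn and at 8.27, 7.33, 10.1 and 7.66 CPM in Treg libraries. All 8 Treg libraries lay above all 8 Tn libraries. The log2 fold change was 2.09 (SE 0.23, edgeR adjusted p = 2.0e-05) in WT and 1.79 (SE 0.21, edgeR adjusted p = 1.1e-05) in Aim2-/- cells.

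Dynlt1c fell in both genotypes. It was at 4.99, 5.88, 8.58 and 7.68 CPM in WT Tn and at 2.08, 2.07, 2.55 and 0.864 CPM in WT Treg libraries. Aim2-/- libraries had it at 4.47, 4.89, 4.90 and 7.60 CPM in Tn and at 2.87, 2.21, 2.19 and 2.45 CPM in Treg libraries. Here too no Treg library reached the level of a Tn library. The log2 fold change was -1.86 (SE 0.32, edgeR adjusted p = 0.00039) in WT and -1.18 (SE 0.21, edgeR adjusted p = 0.00029) in Aim2-/- cells. The calls of Dynlt1a and Dynlt1c held in both genotypes in replicates 1 and 2 alone and in replicates 3 and 4 alone.

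Dynlt1b, at the levels given above, overlapped between Tn and Treg cells in both genotypes. It was lower in WT Treg cells by a small margin, which the choice by genotype difference in Treg cells can favour. The log2 fold change was -0.53 (SE 0.21, edgeR adjusted p = 0.042). That call was lost on leaving out WT Tn replicate 3 (-0.37, adjusted p = 0.12) or 4 (-0.52, adjusted p = 0.087), or WT Treg replicate 1 (-0.46, adjusted p = 0.12), 2 (-0.43, adjusted p = 0.13) or 4 (-0.46, adjusted p = 0.11), all by edgeR, with RLE size factors (adjusted p = 0.061) and with no filter on low counts (-0.49, adjusted p = 0.080). Replicates 1 and 2 alone gave -0.30 (edgeR adjusted p = 0.18) and replicates 3 and 4 alone -0.67 (edgeR adjusted p = 0.037). For Aim2-/- cells the log2 fold change was -0.15, with a 95% interval of -0.39 to 0.09 and an edgeR adjusted p of 0.23, and the same split gave 0.08 (edgeR adjusted p = 0.55) and -0.35 (edgeR adjusted p = 0.030).

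Dynlt1f, the Dynlt1 copy with the highest mean CPM in each group, did not pass the test in either genotype. It was at 15.7, 13.8, 22.7 and 21.4 CPM in WT Tn and at 20.9, 19.7, 16.5 and 16.4 CPM in WT Treg libraries. Aim2-/- libraries had it at 18.0, 18.3, 27.4 and 23.2 CPM in Tn and at 18.6, 20.9, 19.2 and 19.4 CPM in Treg libraries. The log2 fold change was -0.03 (95% interval -0.41 to 0.35, edgeR adjusted p = 0.87) in WT and -0.16 (95% interval -0.46 to 0.14, edgeR adjusted p = 0.29) in Aim2-/- cells. Replicates 1 and 2 of WT alone gave 0.48 (edgeR adjusted p = 0.0027). Replicates 3 and 4 alone gave -0.45 (edgeR adjusted p = 0.0079). The numbers were not taken to pair libraries, so this split is not read as opposed culture effects. The same split of Aim2-/- libraries gave 0.13 (edgeR adjusted p = 0.38) and -0.40 (edgeR adjusted p = 0.017).

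The Dynlt1 sum did not pass the test for culture in either genotype, while its copies moved apart. Its log2 fold change was -0.05 in WT (SE 0.16, 95% interval -0.40 to 0.30, edgeR adjusted p = 0.79) and -0.04 in Aim2-/- cells (SE 0.11, 95% interval -0.28 to 0.19, edgeR adjusted p = 0.73). The split of WT libraries gave opposite values, 0.40 (edgeR adjusted p = 0.0017) in replicates 1 and 2 alone and -0.39 (edgeR adjusted p = 0.010) in replicates 3 and 4 alone. Among Aim2-/- libraries it gave 0.19 (edgeR adjusted p = 0.094) and -0.23 (edgeR adjusted p = 0.067). Here too the split is not read as opposed culture effects, since the numbers were not taken to pair libraries.

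Tmem181b-ps was higher in the Treg culture of WT cells and fell in that of Aim2-/- cells. The log2 fold change was 3.63 (SE 0.30) in WT and -1.01 (SE 0.13, edgeR adjusted p = 2.4e-05) in Aim2-/- cells. In neither genotype did Tn and Treg libraries overlap. In WT each Tn library held fewer than 10 counts, so the gene passed the filter through the Treg libraries alone and no p is given from that test. With no filter on low counts, which does not depend on which group is high, the WT value was 3.68 (edgeR adjusted p = 8.5e-08). The choice of this copy still bears on that value, so it is not read as support. Within replicates 1 and 2 or 3 and 4 alone, the log2 fold change was 3.35 or 3.93 in WT and -1.21 or -0.81 in Aim2-/- cells, where both passed the test. The choice of this copy used the same Tn and Treg values, and through the Tn values it can favour both directions. The difference between these culture effects was not tested.

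Tmem181a passed the test in both genotypes with small and opposite values, which the choice by genotype difference can favour. Its log2 fold change was 0.38 in WT (SE 0.11, edgeR adjusted p = 0.012) and -0.35 in Aim2-/- cells (SE 0.13, edgeR adjusted p = 0.032). Without WT Tn replicate 1 the WT value was 0.31 (edgeR adjusted p = 0.053), and in replicates 3 and 4 alone it was 0.22 (edgeR adjusted p = 0.17), against 0.61 in replicates 1 and 2. The Aim2-/- value was -0.25 (edgeR adjusted p = 0.33) in replicates 1 and 2 alone and -0.43 in replicates 3 and 4. The Aim2-/- call was lost without Tn replicate 2 (-0.31, adjusted p = 0.062), Treg replicate 2 (-0.27, adjusted p = 0.12), Treg replicate 3 (-0.29, adjusted p = 0.099) or Treg replicate 4 (-0.28, adjusted p = 0.11), and with no filter on low counts (-0.30, adjusted p = 0.054), all by edgeR.

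The Tmem181 sum followed its copies, higher in WT Treg and lower in Aim2-/- Treg than in Tn cells. For the sum, too, the choice of the copies can favour these directions. The log2 fold change was 0.55 (SE 0.11, edgeR adjusted p = 0.00091) in WT and -0.62 (SE 0.11, edgeR adjusted p = 0.00027) in Aim2-/- cells. Both held in replicates 1 and 2 alone (0.74 and -0.63, edgeR adjusted p = 9.1e-05 and 0.011) and in replicates 3 and 4 alone (0.43 and -0.59, edgeR adjusted p = 0.014 and 0.0011).

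**Figure D4:**
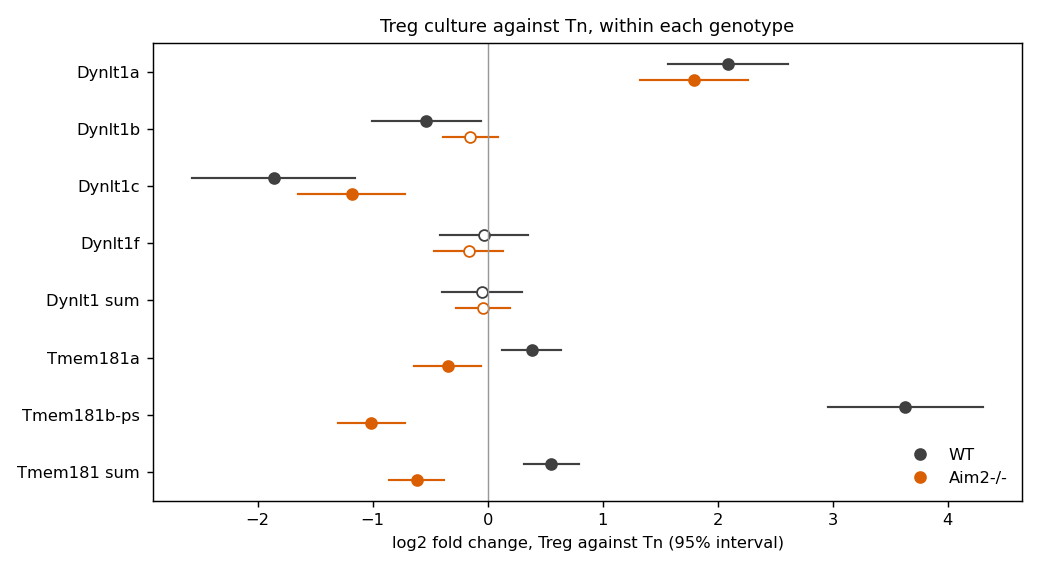
Log2 fold change of Treg against Tn cells (horizontal axis) for each copy and each family sum in WT (black) and Aim2-/- cells (orange), with 4 libraries per group; lines are 95% intervals and filled points passed the edgeR test at an adjusted p under 0.05, which for Tmem181b-ps in WT the filter on low counts favoured. Dynlt1a lies to the right and Dynlt1c to the left of 0 in both genotypes, the Dynlt1 sum lies near 0, and Tmem181b-ps lies at 3.63 in WT and at -1.01 in Aim2-/- cells.

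Shares of a family's counts, which depend neither on depth nor on scaling, moved in the same directions for Dynlt1a and Dynlt1c. They rest on the same counts as the tests above and are no separate support. Shares add up to a fixed total, so a rise of any copy lowers the others, and their tests are not independent. Dynlt1a made up 5.54% ± 0.64 (SD, n = 4) of the Dynlt1 counts in WT Tn and 24.96% ± 3.6 in WT Treg cells, and 4.91% ± 1.2 and 17.4% ± 2.7 in Aim2-/- cells. Dynlt1c fell from 20.6% ± 1.7 to 5.79% ± 2.2 in WT and from 11.2% ± 2.2 to 5.07% ± 0.69 in Aim2-/- cells. Each of these 4 differences had p = 0.029 (adjusted p = 0.041 over 10 tests) when the libraries were permuted exactly between the states (two-sided exact permutation test), and 0.029 is the smallest p that 4 against 4 libraries allow.

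Dynlt1b and Dynlt1f took the rest of the family. The share of Dynlt1b was 17.8% ± 1.1 in WT Tn and 12.8% ± 2.6 in WT Treg cells (exact permutation p = 0.029, adjusted p = 0.041), and 39.8% ± 1.7 and 36.8% ± 1.8 in Aim2-/- cells (exact permutation p = 0.11, adjusted p = 0.13). The share of Dynlt1f was 56.0% ± 2.3 and 56.4% ± 3.6 in WT (exact permutation p = 0.83) and 44.1% ± 2.7 and 40.7% ± 1.6 in Aim2-/- cells (exact permutation p = 0.057, adjusted p = 0.071). With counts divided by exon length, the difference of Dynlt1b in WT was -9.24 percentage points, with an adjusted exact permutation p of 0.082. The choice of Dynlt1b by its genotype difference in Treg cells can favour a lower share in WT Treg cells.

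Tmem181b-ps made up 1.44% ± 0.47 of the Tmem181 counts in WT Tn and 12.5% ± 3.4 in WT Treg cells. Among Aim2-/- libraries it made up 46.6% ± 3.8 in Tn and 35.4% ± 4.0 in Treg cells. Both differences between Tn and Treg had p = 0.029 by the exact permutation test (adjusted p = 0.041), in opposite directions. The choice of the copy by its genotype difference can favour such directions.

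**Figure D5:**
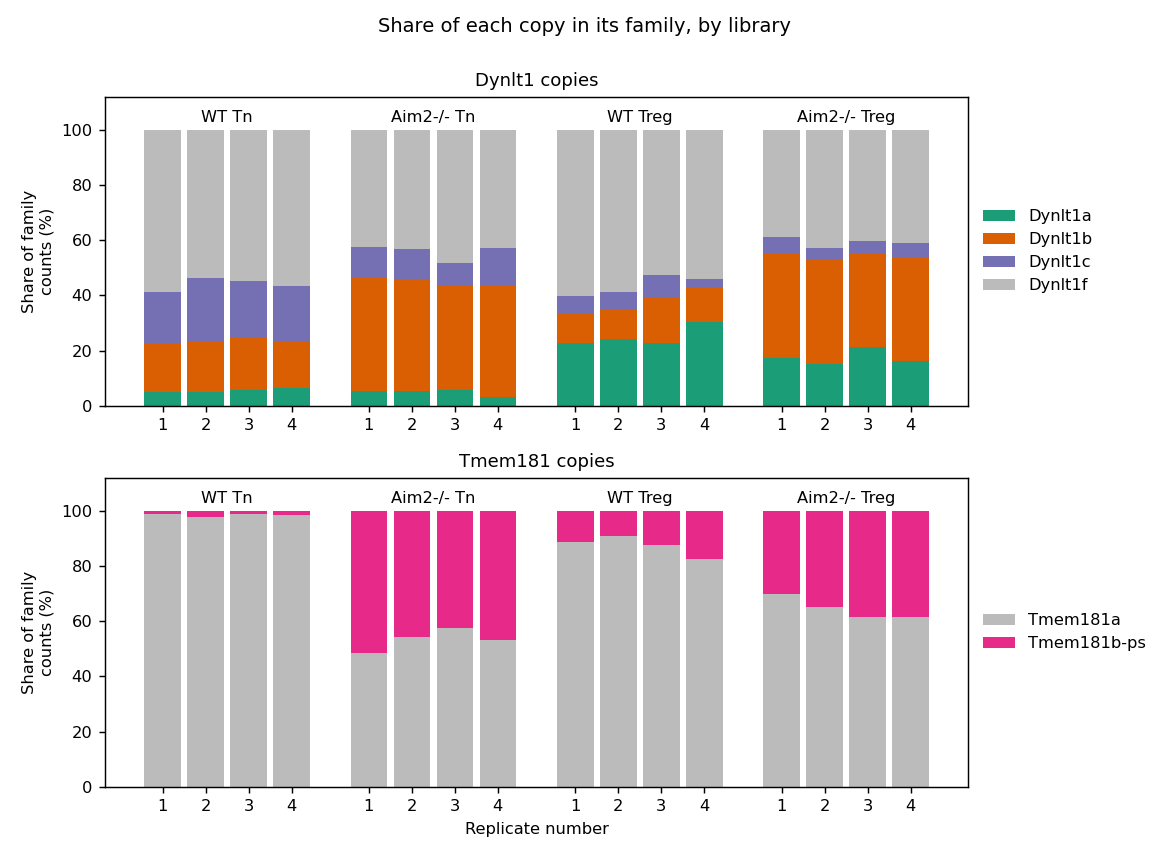
Share of each copy in the counts of its family (vertical axis, percent, bars add up to 100) in each of the 16 libraries, ordered by group and replicate number, for the 4 Dynlt1 copies (above) and the Tmem181 copies (below). Dynlt1a takes 22.6 to 30.3% in WT Treg against 5.06 to 6.41% in WT Tn libraries, and Tmem181b-ps is a sliver of 1.03 to 2.09% in WT Tn but takes 42.4 to 51.6% in Aim2-/- Tn libraries.

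Per kilobase of exon, Dynlt1b stood first among the copies in all 4 groups, because its model is short (771 bases, against 3627 to 6548 for the others). Exon length here joins all exons annotated for a gene, and the coding transcript of Dynlt1f by itself also has 771 bases. The order below, and the shares per exon length, therefore depend on the annotation. Its level was 7.62 ± 2.0 CPM per kb in WT Tn and 5.37 ± 0.91 in WT Treg cells, where it overlapped with Dynlt1f at 5.07 ± 1.2 and 5.07 ± 0.62. In Aim2-/- cells it was 25.2 ± 3.2 CPM per kb in Tn and 22.9 ± 1.2 in Treg libraries, apart from Dynlt1f at 5.99 ± 1.2 and 5.38 ± 0.26. In WT Tn, Tmem181a and Dynlt1c followed and overlapped, then came Dynlt1a, and Tmem181b-ps was last at 0.0555 ± 0.017 CPM per kb. Aim2-/- Tn cells had Tmem181b-ps in the third place, at 5.02 ± 0.70 CPM per kb, overlapping with Dynlt1f above it and Tmem181a below it. In the Treg groups Dynlt1c was last, at 0.501 ± 0.19 CPM per kb in WT, where it overlapped with Tmem181b-ps, and at 0.643 ± 0.084 in Aim2-/- cells.

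The other genes of the dynein machinery were examined as a list of 44, with the remaining dynein subunits, other light chains of the Tctex type, dynactin subunits, regulators and adaptors, and subunits of dynein-2, the motor of cilia. Between genotypes, 0 of 36 tested genes passed in Tn and 0 of 40 in Treg cells by edgeR, and DESeq2 also called 0 in each. At an unadjusted p under 0.05 there were 3 in Tn and 0 in Treg cells. The median log2 difference of the list was -0.06 in Tn and 0.02 in Treg cells, beside 0.01 and 0.00 over all genes tested.

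Between Tn and Treg cells, 26 of 38 dynein genes passed the test in WT (19 higher and 7 lower) and 28 of 38 in Aim2-/- cells (21 higher and 7 lower), where 76.9% and 79.3% of all genes tested were called. The median log2 fold change of the list was 0.25 in WT and 0.27 in Aim2-/- cells, beside -0.05 and -0.04 over all genes. Spdl1, an adaptor that brings dynein to kinetochores, rose from 2.02 ± 0.48 to 47.5 ± 5.5 CPM in WT and from 1.47 ± 0.38 to 48.7 ± 5.7 CPM in Aim2-/- cells (log2 fold change 4.53 and 5.04, edgeR adjusted p = 1.3e-08 and 4.7e-10). Wdr60, an intermediate chain of dynein-2, rose by 3.37 and 3.08 on the log2 scale. Ninl, a centrosomal dynein adaptor, also passed the test, but stayed under 1 CPM in every library with at most 3 counts in each Tn library, so no fold is given.

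The largest falls in WT were in Numa1, which anchors dynein at spindle poles (-0.84), the dynactin subunit Dctn6 (-0.82) and the dynein heavy chain Dync1h1 (-0.71). In Aim2-/- cells they were in Dctn6 (-0.87), Numa1 (-0.75) and the adaptor Rab11fip3 (-0.65). Dynlt3, a paralog of Dynlt1 on another chromosome that was singled out after its values were seen, was at 7.27 ± 1.2 CPM in WT Tn and 8.12 ± 0.71 in WT Treg cells (log2 fold change 0.13, edgeR adjusted p = 0.47), and rose from 6.51 ± 0.76 to 8.16 ± 0.088 CPM in Aim2-/- cells (0.32, edgeR adjusted p = 0.044).

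Genes whose pattern over the 16 libraries was most like that of a copy were found by Pearson's r of log2 CPM over 14663 other genes, as a description in which the 16 libraries fall into 4 groups. For Dynlt1b they were Ifi203-ps (r = 0.94), Entpd4 (0.92) and Ifi204 (0.92). Tmem181b-ps had Pgm1 (0.89), Tmem254a (0.88) and Nt5m (0.84) nearest to it. Dynlt1a had Aarsd1, Abhd17a and Dnlz (0.99 each), Dynlt1c had Tec (0.96), Tdgf1 (0.95) and Slc26a8 (0.94), and Dynlt1f had Mrpl58 (0.96), Chmp2a (0.89) and Nudt16l1 (0.87). The nearest to Tmem181a were 2010320M18Rik and AC162446.5 (0.81 each) and Nr2c2ap (0.76).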

How the data were processed

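RNA of 16 libraries was compared, in 4 groups of 4 taken with their replicate numbers from the deposited titles. The numbers in the names of the deposited tables differ from these for some libraries. The authors prepared stranded mRNA libraries, sequenced single-end reads of 51 bases, aligned them to GRCm38 with STAR and deposited RSEM expected counts per gene (GENCODE m15), neither normalized nor filtered. Tool versions and the strand setting are not given in the sources used here.

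For tests, each expected count was rounded. A gene entered a comparison if 4 or more of its 8 libraries held 10 or more counts, and was tested with edgeR 4.0.16 (TMM, robust quasi-likelihood F test, two-sided), with Benjamini-Hochberg adjustment over all genes tested and a threshold of 0.05. A standard error is the absolute log2 fold change divided by the square root of F. Family sums were tested in a table in which the rows of the copies were replaced by their sum. CPM values use TMM factors over the 16 libraries. Copy shares were compared by exact permutation over 70 arrangements. The reads carried no molecular identifiers, and the floor of 3 counts, 0.0869 to 0.133 CPM by library, covers counting error only.

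Positions, exon lengths, coding sequences and 51-base windows were read from GENCODE M21 (GRCm38), where 52403 of the 53090 genes (98.7%) were found; the models of m15 were not used here. Windows were counted on the transcribed strand unless stated.

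The copies and the gene lists were chosen with earlier results of these data known. Genes named beside the copies were called neighbours or dynein genes by genotype (none were), the 3 largest rises and the 3 largest falls among called dynein genes per culture comparison, and the 3 genes with the highest r per copy. The test scripts were tested on simulated counts. Some marker genes are not reported here singly. Alternatives were DESeq2 1.42.0, limma-voom (limma 3.58.1), RLE size factors, no filter, a filter of 10 counts in each of the libraries, a joint fit of all 16, a block for the replicate number, replicates 1 and 2 or 3 and 4 alone, all rows of a family in its sum, shares per exon length, neighbours within 0.5 Mb, and leaving out each library. Same-numbered libraries of the genotypes deviated from their group means with correlations of 0.02 to 0.30 in Tn and of -0.01 to 0.40 in Treg cells. Libraries with other numbers had mean correlations of -0.11 to -0.006 in Tn and of -0.13 to -0.009 in Treg cells. Between Tn and Treg libraries, those with the same number had correlations of -0.02 to 0.13 in WT and of -0.04 to 0.09 in Aim2-/- cells. For some numbers a library with another number was more alike, so the numbers were not taken to pair libraries. Structure shared by number was not tested.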

Additional observations from a re-analysis of the deposited data

Results flagged for a closer look

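Dynlt1b stood apart in WT Treg replicate 3, at 5.18 CPM, where the other 3 libraries of the group were at 3.64 to 3.88 CPM. Dynlt1c stood apart in Aim2-/- Tn replicate 4, at 7.60 CPM, where the others were at 4.47 to 4.90 CPM. By the gap rule used, which compares the gap to the nearest library with the range of the group, chance alone marks about 1 in 20 groups of 4.

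The culture effect had opposite signs in the genotypes for Tmem181b-ps, with a log2 fold change of Treg against Tn cells of 3.63 in WT and -1.01 in Aim2-/- cells, and all libraries of a genotype lay on the same side. The same held for the Tmem181 sum, at 0.55 in WT and -0.62 in Aim2-/- cells. Neither difference between genotypes was tested, as the copies were chosen for a genotype difference.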

How the results depend on the processing

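Of the alternative values, 796 counted as unchanged, 26 as moved, 6 as reversed, 18 as weaker and 4 as stronger. A tested value was unchanged if it stayed on its side of the threshold. Its direction counted only where a value passed the test. Genotype differences had to keep direction and stay within the SD of the libraries. Shares with 1 library left out had to stay within the pooled SD, and counts of genes within a fixed ratio of the main count. The exceptions were mostly small effects and counts over all genes. The Dynlt1 sum for culture in WT reversed to 0.40 in replicates 1 and 2 alone (edgeR adjusted p = 0.0017) and was -0.39 in replicates 3 and 4 alone (edgeR adjusted p = 0.010), and Dynlt1f in WT reversed to 0.48 in replicates 1 and 2 alone; leaving out single libraries gave -0.18 to 0.06 for that sum. Genotype differences near 0 reversed for Dynlt1a in Treg cells (-0.034 in replicates 1 and 2 alone, and -0.065 to 0.11 on leaving out single libraries) and for Dynlt1f in Treg cells (-0.039 in replicates 1 and 2 alone). Genes called by genotype in Tn cells numbered 31, against 127 with DESeq2, 47 with no filter, 18 with at least 10 counts in every library, 64 with all 16 libraries in one fit, 499 in replicates 3 and 4 alone and 17 to 28 on leaving out single libraries. In Treg cells they numbered 29, against 52 with DESeq2, 17 with at least 10 counts in every library, 5 in replicates 3 and 4 alone and 10 to 17 on leaving out single libraries. Of the neighbours, 1 was called in Tn cells by DESeq2 and 1 with all 16 libraries in one fit, and of the dynein genes 2 in replicates 3 and 4 alone. The share of Dynlt1b in WT moved by -9.24 points per exon length (adjusted exact permutation p = 0.082). The cause was not tested in any of these.

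The replicate number, taken as a block although it was not taken to pair the libraries, ended the call of Tmem181a for culture in Aim2-/- cells (-0.33, edgeR adjusted p = 0.058) and changed no other call of a copy or sum. With this block, genotype calls numbered 29 in Tn and 41 in Treg cells. Culture of Tmem181b-ps in WT could not be fitted without a Treg library, since only 3 libraries then held 10 counts, nor with at least 10 counts in every library, and the same held for its genotype difference in Tn cells when an Aim2-/- library was left out. Leaving 1 library out of the share tests leaves 3 against 4, so those were read by value alone. Depth limits Tmem181b-ps in WT Tn, at 4.19 to 7.99 counts, and short reads limit Dynlt1b, Dynlt1c and Dynlt1f, with 16.8%, 15.7% and 11.6% of windows of their own, those of Dynlt1b all in its first 171 bases.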
